A study of Mus musculus with 18 samples.

Results

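The nuclear-encoded genes of oxidative phosphorylation were followed through a time course of NIH3T3 cells, a fibroblast line derived from mouse embryos. A gene was taken as a member when its symbol in the deposited table began with Nduf, Uqcr, Cox4 to Cox8 or Atp5, or was Sdha, Sdhb, Sdhc or Sdhd. This chose 90 of the 21937 genes by name alone, and 82 of them, whose mean reached 10 normalized reads, entered the tests. The cells received 100 nM dexamethasone for 2 h, the medium was then exchanged (0 h), and RNA was collected at intervals of 4 h until 32 h, giving 9 times with 2 libraries each (replicate 1 and replicate 2). Every group therefore had the same cell line and the same dexamethasone pulse and differed in the time since the medium change, and no untreated cells are among the 18 libraries. A value, called here a normalized read, is a gene's read count divided by 1 size factor per library.

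The respiratory chain sits in the inner mitochondrial membrane. Complex I (NADH dehydrogenase) and complex II (succinate dehydrogenase, which is also an enzyme of the citric acid cycle) pass electrons to ubiquinone, complex III (the cytochrome bc1 complex) passes them on to cytochrome c, and complex IV (cytochrome c oxidase) passes them to oxygen. Complexes I, III and IV pump protons, and complex V (ATP synthase) uses the proton gradient to make ATP. All of these except complex II also hold subunits encoded in mitochondrial DNA, which were not analysed here.

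By known function the 90 members comprised 7 core subunits of complex I (those conserved from bacteria, which bind the flavin, the iron-sulphur clusters and ubiquinone), 29 accessory subunits of complex I, 5 complex I assembly factors (Ndufaf1 to Ndufaf4 and Atp5sl), 4 subunits of complex II, 8 of complex III, 18 of complex IV (with Ndufa4, now counted as a complex IV subunit) and 16 of complex V. The remaining 3 were kept on their own: Cox7a2l, which helps complexes III and IV to associate in supercomplexes; Ndufa4l2, a paralog of Ndufa4; and Cox4nb, which matched by its symbol only and encodes a subunit of an endoplasmic reticulum membrane complex.

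The libraries held 25.4 to 38.9 M reads, those of replicate 1 31.9 to 38.9 M and those of replicate 2 25.4 to 32.0 M. The labels do not state that replicates came from separate cultures, so p-values measure the spread between these libraries, which may be technical. All 8 fibroblast markers looked for were present, with a summed level of 609469 to 818334 normalized reads per library. Of the markers of other cell types, the summed level per library was 116 to 1121 normalized reads in the 4 epithelial, 259 to 396 in the 3 leukocyte, 34.4 to 93.7 in the 3 endothelial, 25.2 to 62.7 in the 3 adipocyte, 0 to 5.15 in the 3 skeletal muscle and 245 to 715 in the 2 neural ones. Among them Krt8 (99.0 to 1079), Cd68 (154 to 273), Cd14 (77.8 to 131) and Tubb3 (243 to 710.3) reached levels like those of low tested members such as Atp5j and Atp5s, while the defining Epcam (0 to 3.86), Cdh1 (0 to 3.58) and Ptprc (0 to 4.87) were near 0 and Kdr and Myod1 at 0 in every library. Between 0 h and 32 h the mean sum went from 976 to 170.3 in the epithelial, from 286 to 351 in the leukocyte and from 411 to 257 in the neural list. Their part in the changes of the members was not tested. In bulk RNA, fewer cells of a kind and less RNA per cell cannot be told apart.

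Together the members took 0.985% and 0.975% of the reads of the 2 libraries at 0 h. At 4 h the share was 0.947% and 0.951%, and at 28 h it was 1.22% and 1.21%. The 10 most abundant genes took 8.05% and 8.09% at 0 h and 5.87% and 6.29% at 28 h. With the deposited size factors the members' median log2 difference of 28 h from 0 h was 0.06 (all genes 0.01), and with equal totals 0.28 (all genes 0.22). Complex V alone supplied 53.2% of the members' normalized reads, complex IV 15.0%, the accessory subunits of complex I 12.3%, complex III 7.66%, the complex I core 5.63% and complex II 4.19%. The 2 ATP synthase genes Atp5a1 (subunit alpha) and Atp5b (subunit beta) made up 36.6% of all member reads.

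Levels between genes were compared per kilobase of exon, using gene models of a later mouse build (81 of the 82 tested members had one). On this scale the median was 2996 normalized reads per kilobase in complex IV, 2117 in complex III, 1778 in complex V, 1375 in complex II, 1006 in the complex I core and 987 in its accessory subunits. The assembly factors had a median of 186, below that of every complex, and ran from 11.3 to 282. Some subunits lay within that range, such as Ndufb2 at 69.8 and Ndufab1 at 195. The length used is the union of all annotated exons of a gene, which lowers the value where many are annotated. Atp5a1, at 20849, and Atp5b, at 14502, were the 2 highest members, followed by Cox8a at 10230.4 and Cox6a1 at 6907. Within each complex the spread was wide, from 34.3 to 10230.4 in complex IV and from 50.3 to 20849 in complex V.

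**Figure D1:**
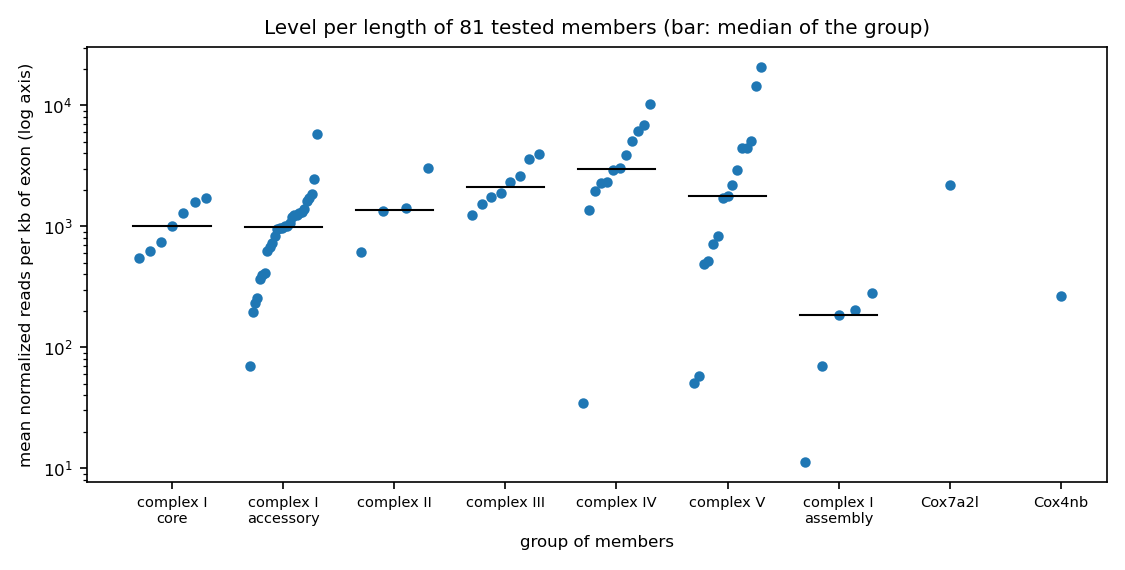
Mean level over the 18 libraries of 81 tested members, in normalized reads per kilobase of exon on a log axis, by complex. Each point is 1 gene and the bar is the median of the complex, which ran from 186 in the assembly factors to 2996 in complex IV.

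For most subunits of complex IV that have tissue-specific versions, only the version known from most tissues was expressed. Cox4i1 stood at 5057 normalized reads per kilobase, while Cox4i2, known from lung, held 0 to 5.26 normalized reads in any library. Cox6a1 stood at 6907 per kilobase, and Cox6a2, the heart and skeletal muscle form, at 34.3. Cox6b1 stood at 6164 per kilobase, and Cox6b2, known from testis, held 0 to 9.01 normalized reads. Cox7a2 stood at 3044 per kilobase against 0 to 6.37 normalized reads for Cox7a1, the muscle form, and Cox7a2l at 2180.4 per kilobase. Cox7b stood at 2947 per kilobase, with Cox7b2 at 0 in every library. Cox8a, with its 10230.4 per kilobase, was accompanied by 0 to 1.11 normalized reads of Cox8b and by Cox8c at 0 in every library. Ndufa4 stood at 3906 per kilobase and Ndufa4l2 held 1.79 to 9.47 normalized reads. These 7 low forms and Ndufs5, an accessory subunit of complex I whose row held 0 to 0.91 normalized reads, are the 8 members that were not tested. In the later annotation Ndufs5 has 1 near-identical pseudogene copy elsewhere (at least 95% over at least 200 bases). The reason for its near-empty row was not tested, so the row does not show that the gene is unexpressed. The 3 genes for the membrane ring subunit c of ATP synthase, which encode the same mature protein, were all expressed, Atp5g2 at 5037, Atp5g3 at 4479.8 and Atp5g1 at 829 normalized reads per kilobase.

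All tested members were present at every time, and their levels moved little. The ratio of the highest to the lowest time mean had a median of 1.21 over the 82 members and ran from 1.07 to 2.09. It exceeded 1.5 in only 3 genes: Ndufaf3 (2.09, a gene at 10.7 to 35.2 normalized reads per library), Ndufaf4 (1.59) and Atp5j (1.50). The medians by complex were 1.24 in complex V, 1.22 in the accessory subunits of complex I, 1.21 in complex II, 1.19 in the complex I core, 1.18 in complex III and 1.15 in complex IV. A difference among the 9 times passed the test in 49 of the 82 members (limma F test, adjusted p under 0.05), against 52% of all 12393 genes tested. By complex these were 7 of 7 core and 17 of 28 accessory subunits of complex I, 3 of 4 of complex II, 5 of 8 of complex III, 13 of 16 of complex V, 2 of 12 of complex IV (Ndufa4, and Cox6c with a call lost in 13 alternatives), 1 of 5 assembly factors (Ndufaf4) and Cox7a2l.

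The usual course was a dip at 4 to 8 h and a plateau from 20 h on. The lowest time mean fell at 4 or 8 h in 64 of 82 members (78%), against 28.5% of all genes tested. The highest fell at 20 h or later in 62 members (75.6%), against 36.4% of all genes. When libraries were instead scaled to equal totals the same counts were 70 (85.4%, all genes 33.1%) and 76 (92.7%, all genes 52.2%). As deposited 24 members were lowest at 4 h and 40 at 8 h. Equal totals gave 58 and 12, so the hour of the dip depended on the scaling. The median log2 deviation of the members from their own means was -0.13 and -0.08 in the 2 libraries at 4 h, -0.13 and -0.12 at 8 h, and 0.07 and 0.10 at 28 h. The same median over all genes stayed at 0.00 or 0.01 in size in every library, which the size factors impose.

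The complexes differed in when their members were lowest. The lowest time mean fell at 4 or 8 h in all 7 core subunits of complex I, all 4 of complex II, all 16 of complex V, 7 of 8 of complex III and 23 of 28 accessory subunits of complex I. In complex IV it did so in 6 of 12 members, all of them at 8 h and none at 4 h, and 5 of the 12 were highest at 0 h. So were 6 of the 28 accessory subunits of complex I and 2789 of all 12393 genes tested. None of the 5 assembly factors had its lowest mean at 4 or 8 h. The difference between complexes was not tested. At 4 h the median deviation of the core of complex I was -0.15 in both libraries, that of complex II -0.21 and -0.12, that of complex V -0.16 and -0.08, and that of complex IV 0.03 and -0.04. At 8 h complex IV stood at -0.04 and -0.12, and at 28 h at 0.04 and 0.05, where complex V stood at 0.09 and 0.12. Set against 0 h, complex IV was low at 8 h too: its median log2 difference was -0.15, with 12 of 12 estimates below 0, against -0.16 in the accessory subunits, -0.14 in complex V, -0.11 in the complex I core, -0.09 in complex III and -0.04 in complex II. With equal totals 9 of the 12 complex IV members were lowest at 4 or 8 h, 6 of them at 4 h, and none was highest at 0 h, so these counts depend in part on the scaling. The median log2 difference of complex IV between 8 h and 0 h was then -0.009.

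**Figure D2:**
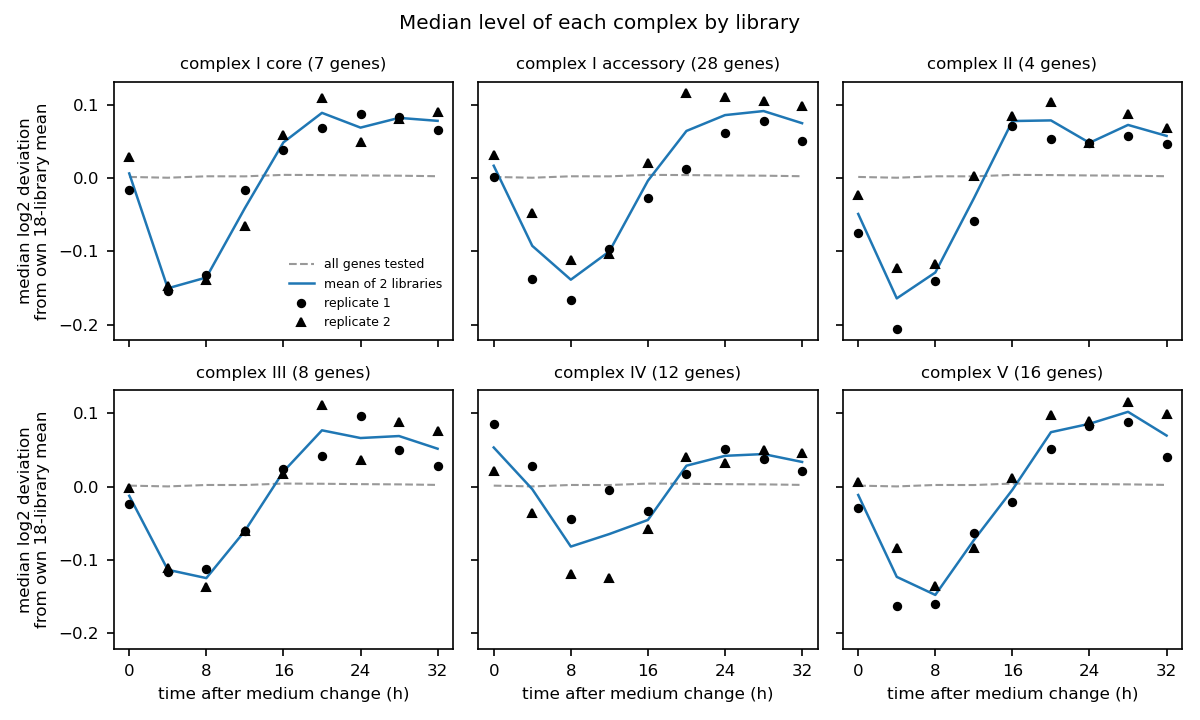
Median log2 deviation of each complex's tested members from their means over all libraries, against hours after the medium change, with 1 point per library and the median over all genes tested as a dashed line. All panels but complex IV fall below -0.1 in at least 1 library at 4 h, where complex IV stands at 0.03 and -0.04. At 8 h complex IV stands at -0.04 and -0.12. All panels lie above 0 at 28 h.

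**Figure D3:**
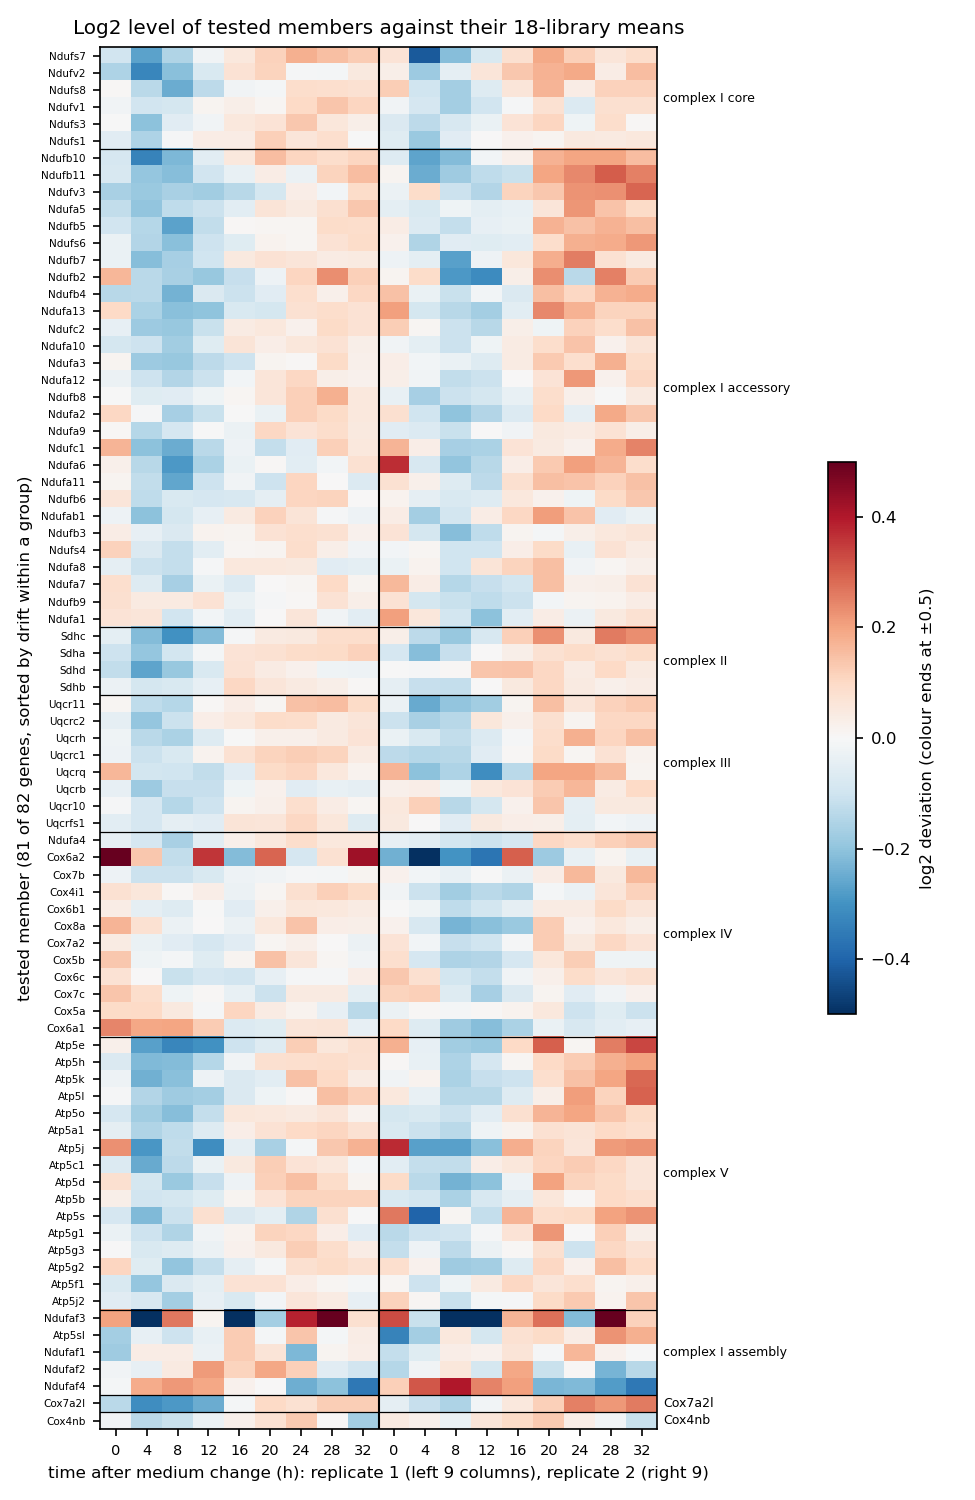
Log2 deviation of 81 of the 82 tested members (rows, ordered by complex) from their own means in each of the 18 libraries (columns, by time and replicate), with colours ending at -0.5 and 0.5. The columns of 4 and 8 h are low and those from 20 h on are high in most rows of complexes I, II, III and V, while the rows of complex IV are mixed.

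The members' promoters were searched for the binding motifs of factors known to act on respiratory genes. The windows were the 250 bases before the RefSeq start (GRCm38.p6), available for 69 of the tested members as 75 windows, and were searched on both strands. The NRF1 motif, a palindrome whose letters are those in capitals in the window of Atp5g2 below, was found in 5 windows (6.67%), against 1.63% of 12403 windows of all genes tested and 0.782% of all 32851 windows. With its sixth base free, which includes the first form, it was found in 14 windows (18.7%), against 8.03% and 3.74%. By complex these were 6 of 28 windows of complex I accessory subunits, 4 of 18 of complex V, 2 of 3 of complex II, 1 of 9 of complex IV, 1 of 6 of the assembly factors, and none of 5 in each of the complex I core and complex III. The ETS motif CCGGAAGT was in 4% of the members' windows (all genes tested 5.93%, all windows 2.88%), the NF-Y motif CCAAT in 42.7% (35.5% and 33.8%), and the YY1 motif CGGCCATC in none (0.629% and 0.441%). A match describes letters in a window and not a bound site.

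Of these windows 4 are shown, because they hold both states of the motif in members called between 4 h and 28 h, each 5′ to 3′ on the gene's own strand and ending at the base before the start, with capitals marking every match to one of the motifs on either strand. Between 4 h and 28 h Sdha rose, and its window has 3 NRF1-type matches (chr13:74350241-74350490, minus strand, with 1 reverse NF-Y match). Atp5g2 rose and has 1 exact NRF1 match (chr15:102671048-102671297, minus strand). Ndufaf4 fell and has the same exact match (chr4:24897833-24898082, plus strand). Ndufb10 rose and has no match (chr17:24724424-24724673, minus strand).
Sdha: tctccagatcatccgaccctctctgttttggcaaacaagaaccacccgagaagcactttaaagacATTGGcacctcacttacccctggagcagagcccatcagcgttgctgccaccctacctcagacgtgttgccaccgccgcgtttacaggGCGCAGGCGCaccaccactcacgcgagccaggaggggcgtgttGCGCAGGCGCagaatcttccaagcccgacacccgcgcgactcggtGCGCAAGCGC
Atp5g2: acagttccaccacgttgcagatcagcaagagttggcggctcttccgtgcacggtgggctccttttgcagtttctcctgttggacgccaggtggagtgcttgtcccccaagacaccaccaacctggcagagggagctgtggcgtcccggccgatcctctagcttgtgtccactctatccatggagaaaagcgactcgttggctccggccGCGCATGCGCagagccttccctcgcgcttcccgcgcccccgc
Ndufaf4: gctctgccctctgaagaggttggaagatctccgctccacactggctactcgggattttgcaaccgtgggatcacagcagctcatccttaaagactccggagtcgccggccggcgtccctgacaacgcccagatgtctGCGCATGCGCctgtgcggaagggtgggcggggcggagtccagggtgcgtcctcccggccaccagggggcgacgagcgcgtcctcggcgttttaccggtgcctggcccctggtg
Ndufb10: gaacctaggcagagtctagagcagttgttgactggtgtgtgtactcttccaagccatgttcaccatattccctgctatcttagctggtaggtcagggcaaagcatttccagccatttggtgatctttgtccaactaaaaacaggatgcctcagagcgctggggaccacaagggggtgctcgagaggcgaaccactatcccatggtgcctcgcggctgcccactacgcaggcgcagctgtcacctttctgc
They were chosen with the values and the matches known, so they do not bear on how matches and changes go together.

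The comparison of 28 h with 4 h sets libraries against each other that are 24 h apart and uses no 0 h library. At 28 h 42 of the 82 members were higher than at 4 h and 1 was lower (limma, adjusted p under 0.05), where 20.6% of all genes tested were higher and 20.7% lower. The median log2 difference of the members was 0.19, that of all genes 0.01, and 75 of the 82 differences were above 0. Within replicate 1 the median was 0.19 and within replicate 2 it was 0.16. The count rested on few libraries: it was 19 without replicate 1 at 4 h (all genes 15.8%), 24 without replicate 1 at 28 h (15.9%) and 17 without replicate 2 at 28 h (13.0%). With equal totals 73 members were higher (all genes 40.8%) and the members' median was 0.37 where that of all genes was 0.19, a shift that this scaling gives all genes alike.

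By complex, 7 of 7 core subunits of complex I rose (median log2 difference 0.24), 3 of 4 of complex II (0.23), 13 of 16 of complex V (0.22), 5 of 8 of complex III (0.20), 11 of 28 accessory subunits of complex I (0.19) and 1 of 12 of complex IV (0.06). Of the assembly factors 1 rose and 1 fell, and Cox7a2l rose. With equal totals the counts were 7, 4, 16, 8, 27 and 7 in the same order, and the median of complex IV was 0.24. Complex IV had the lowest share of members called and the lowest median of the complexes with either scaling, and no test of the difference between complexes was made.

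**Figure D4:**
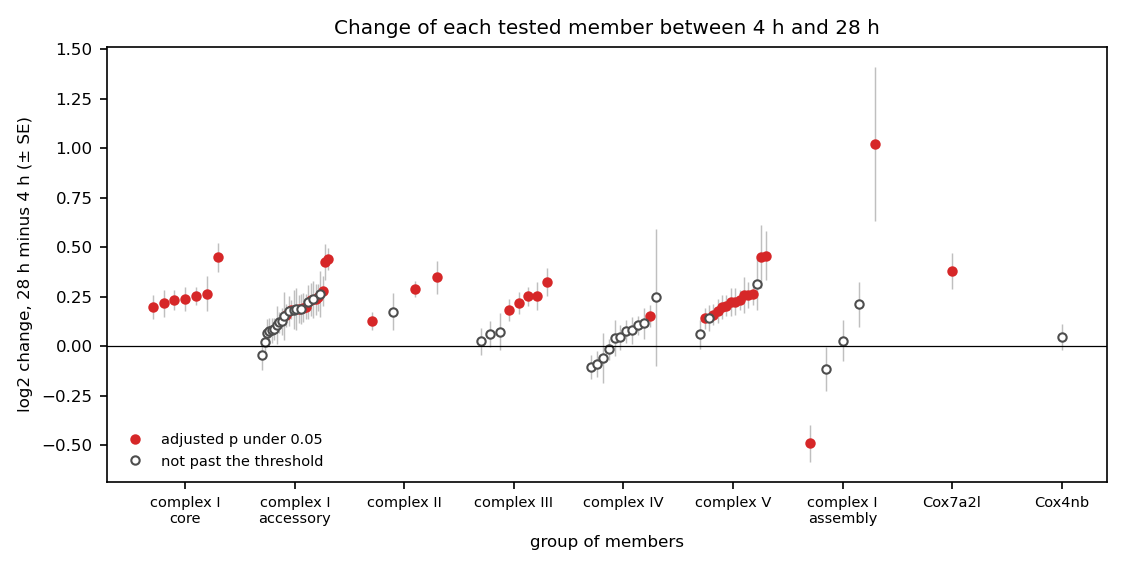
Log2 difference between 28 h and 4 h for each tested member, with its SE, grouped by complex; red marks an adjusted p under 0.05. All 7 core subunits of complex I are red, and Ndufa4 is the red point among the 12 members of complex IV, which otherwise lie about 0.

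Of the core of complex I, Ndufs7, whose protein carries the iron-sulphur cluster nearest to the ubiquinone site, changed by the largest amount. It had 878 and 984 normalized reads at 0 h, 779 and 701 at 4 h, 844 and 809 at 8 h, 927 and 890.1 at 12 h, 974 and 992 at 16 h, 1015 and 1070.4 at 20 h, 1062 and 1019 at 24 h, 1041 and 979 at 28 h, and 1024 and 998 at 32 h. Both libraries of 4 h lay below all other libraries, and those from 20 h on did not overlap those of 4, 8 and 12 h. Between 4 h and 28 h it rose by 0.45 ± 0.07 on the log2 scale (SE, 2 libraries against 2, 1.37-fold, limma adjusted p = 0.000243), without overlap of the libraries. Ndufs1, the large iron-sulphur subunit, went from 4534 and 4438 to 5351 and 5205 (0.23 ± 0.05, adjusted p = 0.00161). The flavin-bearing Ndufv1 (0.20 ± 0.06, adjusted p = 0.0175), its partner Ndufv2 (0.27 ± 0.09, adjusted p = 0.0252), Ndufs3 (0.24 ± 0.06, adjusted p = 0.00516) and Ndufs8 (0.22 ± 0.07, adjusted p = 0.0189) rose by like amounts. The calls of Ndufv1, Ndufv2 and Ndufs8 were each lost when 1 of 3 libraries was left out, replicate 1 of 4 h and of 28 h among them, with adjusted p up to 0.109, 0.177 and 0.103.

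The accessory subunits of complex I, which surround the core without carrying redox centres, ranged from -0.04 (Ndufa1) to 0.44 (Ndufb10). Ndufb10, of the membrane arm, had the smallest p of the members in the F test over all times (adjusted p = 4.2e-05). Its libraries held 1500.1 and 1521 normalized reads at 0 h, 1263 and 1326 at 4 h, 1362 and 1368 at 8 h, 1534 and 1577 at 12 h, 1651 and 1622 at 16 h, 1771 and 1797 at 20 h, 1714 and 1826 at 24 h, 1691 and 1824 at 28 h, and 1714 and 1772 at 32 h. The 4 libraries of 4 and 8 h were the lowest of the 18, and the 8 from 20 h on were the highest. The difference from 4 h to 28 h was 0.44 ± 0.06 (1.36-fold, adjusted p = 3.25e-05). Ndufb11, also of the membrane arm, had 944 and 909 normalized reads at 4 h and 1165 and 1332 at 28 h (0.43 ± 0.09, adjusted p = 0.00187). Ndufs6 (0.28 ± 0.08, adjusted p = 0.0104) and Ndufa9 (0.19 ± 0.05, adjusted p = 0.00824) were among the other 9 that rose; the call of the former was lost without replicate 2 of 28 h (adjusted p = 0.103) and that of the latter without replicate 1 of 4 h (0.0714) or of 28 h (0.0508). The remaining 17 did not pass, and their estimates reached from -0.04 to 0.26. With the replicate number in the fit, 19 accessory subunits passed in place of 11, where 27.1% of all genes were higher in place of 20.6%.

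In complex II all 4 subunits were estimated higher at 28 h. Sdha, the flavoprotein that oxidizes succinate, had replicates that lay close together. Its libraries held 5394 and 5464 normalized reads at 0 h, 5070.0 and 4995 at 4 h, 5433 and 5345 at 8 h, 5756 and 5801 at 12 h, 6072 and 5921 at 16 h, 6104 and 6114 at 20 h, 6174 and 6182 at 24 h, 6199 and 6104 at 28 h, and 6274 and 6169 at 32 h. The 2 libraries of 4 h were the lowest, and the 12 libraries from 12 h on all lay above the 6 before. From 4 h to 28 h Sdha rose by 0.29 ± 0.04 (1.22-fold, adjusted p = 9.57e-05), a call kept in every alternative run (adjusted p 3.9e-09 to 0.0019). Sdhc, one of the 2 membrane anchors, had 1699.7 and 1805 normalized reads at 4 h and 2099 and 2369.7 at 28 h (0.35 ± 0.08, adjusted p = 0.0046), and without replicate 2 of 28 h the difference was 0.26 with an adjusted p of 0.0698. Sdhb, the iron-sulphur subunit, went from 2822 and 2772 to 3061 and 3051 (0.13 ± 0.05, adjusted p = 0.0404), a call lost in 9 of 26 alternatives. Sdhd, the other anchor, had 3082 and 3689 at 4 h and 3653 and 3967 at 28 h, which overlap (0.18 ± 0.09, adjusted p = 0.148). It was higher at 28 h within both replicates, and with the replicate number as a block in the fit its adjusted p was 0.0108, so that all 4 subunits passed.

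In complex III the 2 large core proteins and 3 small subunits rose. Uqcrc2 had 4209 and 4302 normalized reads at 4 h and 4970.0 and 5174 at 28 h (0.25 ± 0.05, adjusted p = 0.000797), and Uqcrc1 had 5859.7 and 5712 at 4 h and 6822 and 6628 at 28 h (0.22 ± 0.06, adjusted p = 0.00654). The small subunits were Uqcr11 (0.32 ± 0.07, adjusted p = 0.00225), Uqcrq (0.26 ± 0.07, adjusted p = 0.00985) and Uqcrh (0.18 ± 0.06, adjusted p = 0.0182). Without replicate 2 of 28 h the adjusted p was 0.101 for Uqcrq and 0.136 for Uqcrh, and without replicate 1 of 28 h it was 0.0504 for Uqcrc1; Uqcrq was also lost without replicate 2 of 4 h (0.0863) and Uqcrh without replicate 1 of 4 h (0.11). Uqcrq, which binds near cytochrome b, had a course of its own. It started at 2539.6 and 2541 normalized reads at 0 h, held 2120.2 and 1959 at 4 h, 2111 and 2031 at 8 h, 2074 and 1825 at 12 h and 2176 and 2059 at 16 h, and then 2414 and 2592 at 20 h, 2439 and 2590.2 at 24 h, 2346 and 2521 at 28 h and 2287 and 2286 at 32 h. The libraries of 4 to 16 h all lay below the rest, so that the low phase lasted longer than in Sdha. The Rieske iron-sulphur protein Uqcrfs1 (0.06 ± 0.06, adjusted p = 0.462), Uqcrb (0.07 ± 0.09, adjusted p = 0.552) and Uqcr10 (0.03 ± 0.07, adjusted p = 0.796) did not pass.

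In complex IV only Ndufa4 passed, with 5078 and 5195 normalized reads at 4 h and 5578 and 5848 at 28 h (0.15 ± 0.05, adjusted p = 0.0351), and leaving out 1 library could raise its adjusted p, to 0.14 without replicate 1 of 4 h, 0.068 without replicate 2 of 4 h and 0.216 without replicate 2 of 28 h. The subunits encoded by Cox genes were spread about 0. Cox4i1, the largest nuclear-encoded subunit, stood at 0.12 ± 0.08 (adjusted p = 0.248) and Cox6b1, which faces the intermembrane space, at 0.11 ± 0.05 (adjusted p = 0.0889). Cox7b was at 0.08 ± 0.07, Cox7a2 at 0.08 ± 0.06, Cox5b at 0.05 ± 0.06, Cox8a at 0.04 ± 0.09 and the low Cox6a2 at 0.25 ± 0.35, with adjusted p from 0.306 to 0.731. Cox6c (-0.02 ± 0.05), Cox6a1 (-0.06 ± 0.12), Cox7c (-0.09 ± 0.07) and Cox5a (-0.10 ± 0.06, adjusted p = 0.178) were estimated below 0. Cox5a, which lies on the matrix side, had 5191 and 4763 normalized reads at 0 h, 5211 and 4876 at 4 h, 5029.6 and 4822 at 8 h, 4838 and 4879.5 at 12 h, 5236 and 4922 at 16 h, 4993 and 5038 at 20 h, 4919 and 4528 at 24 h, 4725 and 4653 at 28 h and 4421 and 4516 at 32 h. It had no dip at 4 h, and only its 2 libraries of 32 h lay below all others. Cox6c had 7309 and 7631 at 0 h, 6967 and 7355 at 4 h, 6442 and 6522 at 8 h, 6562 and 6412 at 12 h, 6512 and 6871 at 16 h, 6754 and 7069.8 at 20 h, 6919 and 7404 at 24 h, 6924 and 7245 at 28 h and 7122 and 7350.0 at 32 h. Its dip lay at 8 to 12 h, and its values of 4 h and 28 h overlapped.

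Cox6a1 differed between the replicates. In order of time its replicate 1 stood at 5719, 5528, 5538, 5272, 4611, 4632, 5042, 5053 and 4691 normalized reads. Replicate 2 stood at 5176, 4614, 4274, 4169.8, 4331, 4719.9, 4563, 4653 and 4693. Replicate 1 was the higher of the pair at every time but 20 h and 32 h.

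In complex V 13 of the 16 members rose, among them the genes of subunits alpha and beta. Atp5a1 had 63259.6 and 61868 normalized reads at 0 h, 58799 and 60570.0 at 4 h, 59729 and 59421 at 8 h, 62319 and 64193 at 12 h, 66793 and 65957 at 16 h, 68637 and 68768 at 20 h, 69913 and 68134 at 24 h, 70286 and 69894 at 28 h and 68808 and 69135 at 32 h. The 4 libraries of 4 and 8 h were the lowest of the 18, and every library from 16 h on was above every earlier one. Its difference between 28 h and 4 h was 0.23 ± 0.05 (adjusted p = 0.00225). Atp5b went from 57389 and 57584 to 66254 and 65686 (0.20 ± 0.06, adjusted p = 0.0148), but leaving out any library of these 2 times took the adjusted p to between 0.0508 and 0.0685. The central stalk subunits Atp5c1 (gamma) and Atp5d (delta) rose by 0.26 ± 0.05 (adjusted p = 0.00125) and 0.21 ± 0.05 (adjusted p = 0.0051), and the third of the stalk, Atp5e (epsilon), stood at 0.31 ± 0.13 (adjusted p = 0.0681, with the replicate block 0.00274). Of the genes for subunit c, Atp5g1 (0.18 ± 0.06, adjusted p = 0.0279) and Atp5g2 (0.14 ± 0.05, adjusted p = 0.0431) passed and Atp5g3 (0.15 ± 0.07, adjusted p = 0.0902, with the replicate block 0.0328) did not, with estimates that lie within 1 SE of each other. The call of Atp5g2 was lost in 13 of 26 alternatives, and that of Atp5g1 without either library of 4 h or replicate 2 of 28 h.

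Atp5d and Atp5g2 had the smallest F-test p-values of complex V. Atp5d held 3611 and 3648 normalized reads at 0 h, 3211 and 3106 at 4 h, 3004 and 2900.1 at 8 h, 3154 and 2958 at 12 h, 3353 and 3351 at 16 h, 3707 and 3922 at 20 h, 3788 and 3683 at 24 h, 3641 and 3646 at 28 h and 3449.8 and 3557 at 32 h. Its libraries of 4 to 12 h lay below all the others, and those of 20 h and 24 h above all the others. Atp5g2 went from 9066 and 8920.3 at 0 h to 8076 and 8549 at 4 h, 7334 and 7431 at 8 h and 7745 and 7474 at 12 h, and back to 8995 and 9337 at 28 h.

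The lowly expressed Atp5j (coupling factor 6) had the largest ratio of highest to lowest time mean in complex V. It held 182 and 202 normalized reads at 0 h, 127 and 129 at 4 h, 143 and 129 at 8 h, 125 and 135 at 12 h, 151 and 177 at 16 h, 139 and 168 at 20 h, 155 and 162 at 24 h, 171 and 181 at 28 h and 176 and 182 at 32 h. From 4 h to 28 h it rose by 0.46 ± 0.12 (1.37-fold, adjusted p = 0.00844), and without replicate 2 of 28 h the adjusted p was 0.0643. Atp5s, named for its link to the synthase and at 88.8 to 141 normalized reads per library, rose by 0.45 ± 0.16 (adjusted p = 0.0326), a call lost in 5 alternatives, among them those without replicate 1 or replicate 2 of 28 h or replicate 2 of 4 h. In the later annotation exons of Atp5j overlap those of Gabpa on the other strand, 31 of the tested members share exon positions with another gene, and 17 have a near-identical copy elsewhere (at least 95% over at least 200 bases). Whether the counting used the strand is not given in the sources used here, so the levels of these members are less certain.

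**Figure D5:**
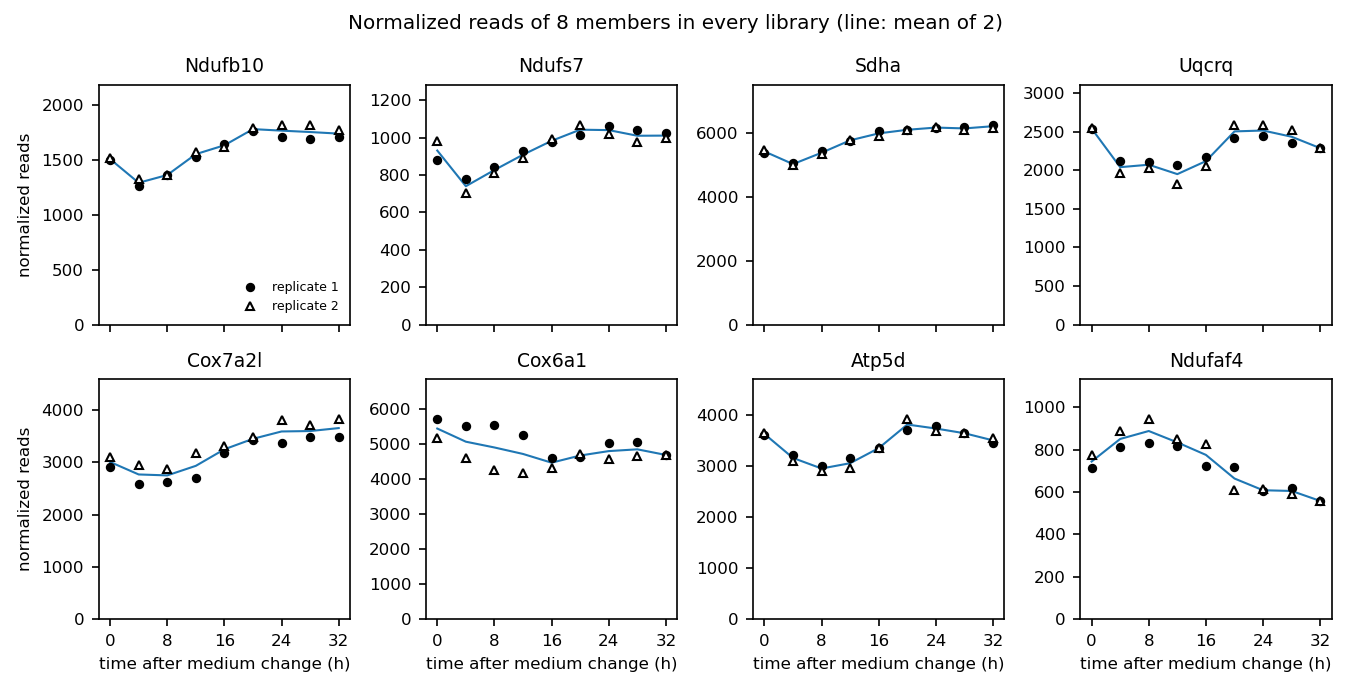
Normalized reads of Ndufb10, Ndufs7, Sdha, Uqcrq, Cox7a2l, Cox6a1, Atp5d and Ndufaf4 in each library against hours after the medium change, with a line through the means and axes that start at 0. Sdha climbs from 5070.0 and 4995 at 4 h to 6104 to 6274 from 20 h on, and Ndufaf4 falls from 831 and 944 at 8 h to 558 and 557 at 32 h.

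The 5 assembly factors differed among themselves. Ndufaf4, an early assembly factor of complex I, went the other way from most subunits. It had 711 and 776 normalized reads at 0 h, 814 and 886 at 4 h, 831 and 944 at 8 h, 818 and 849 at 12 h, 725 and 825 at 16 h, 716 and 610.2 at 20 h, 603 and 613 at 24 h, 620.3 and 589 at 28 h and 558 and 557 at 32 h. The 6 libraries from 24 h on were all below the 10 from 0 to 16 h, and the 2 of 20 h lay 1 in each range. Between 4 h and 28 h it fell by 0.49 on the log2 scale (SE 0.09, 1.40-fold lower, adjusted p = 0.000844), the one member called lower, and this held in every alternative run. Ndufaf3, at 15.3 ± 3.83 normalized reads at 4 h and 31.8 ± 4.70 at 28 h (SD, n = 2), rose by 1.02 ± 0.39 (adjusted p = 0.0489), a call lost in 12 of 26 alternatives, and its exons overlap those of Impdh2 on the other strand. Ndufaf1 (0.03 ± 0.10), Ndufaf2 (-0.12 ± 0.11) and Atp5sl (0.21 ± 0.11, adjusted p = 0.148) did not pass.

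The supercomplex factor Cox7a2l, related in sequence to the Cox7a subunits of complex IV, was low from 0 to 12 h and high from 16 h on. It held 2913 and 3100.2 normalized reads at 0 h, 2579 and 2958 at 4 h, 2622 and 2878 at 8 h, 2695 and 3171 at 12 h, 3182 and 3317 at 16 h, 3425 and 3476 at 20 h, 3376 and 3806 at 24 h, 3482 and 3716 at 28 h and 3483 and 3829 at 32 h. Replicate 2 was higher at every time, and from 16 h on every library lay above all of those before. Its difference between 28 h and 4 h was 0.38 ± 0.09 (1.30-fold, adjusted p = 0.00399), and without replicate 1 of 4 h it was 0.28 with an adjusted p of 0.0537. Cox4nb, which is no part of the chain, differed by 0.05 ± 0.07 (adjusted p = 0.582).

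The second pair of times 24 h apart, 32 h against 8 h, was added after the values had been seen. Here 39 members were higher and 1 lower, where 13.5% and 14.1% of all genes were, and the members' median was 0.19 against 0.00 for all genes. The counts were 15 of 28 accessory and 4 of 7 core subunits of complex I, 11 of 16 of complex V, 3 of 8 of complex III, 2 of 4 of complex II and 3 of 12 of complex IV, and Cox7a2l (0.41 ± 0.09, adjusted p = 0.0046). The 3 of complex IV were Ndufa4 (0.22 ± 0.05, adjusted p = 0.00836), Cox6c (0.16 ± 0.05, adjusted p = 0.0434) and Cox6b1 (0.14 ± 0.05, adjusted p = 0.0369), and the median of complex IV was 0.15, near those of complexes II (0.16) and III (0.16). All 3 complex IV calls were lost without replicate 1 of 8 h or without replicate 2 of 32 h, and of 26 alternatives 10 lost that of Cox6c (adjusted p up to 0.229) and 6 that of Cox6b1 (up to 0.187). That of Cox7a2l was lost without the same libraries (adjusted p = 0.0536 and 0.0617). Ndufaf4 was the member that was lower, by 0.67 on the log2 scale (SE 0.09, 1.59-fold lower, adjusted p = 0.000232). The count of higher members fell without either library of 8 h and without replicate 2 of 32 h. The shares of all genes in these fits are not given here.

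The remaining contrasts all share the 2 libraries of 0 h. At 4 h no member was higher by limma (11% of all genes) and 8 were lower (10.5%). Members higher also numbered 0 at an unadjusted p under 0.05, 0 by edgeR and 0 by DESeq2. Among those lower were Atp5j, by 1.50-fold (-0.58 ± 0.12, adjusted p = 0.0045), Ndufs7 (-0.33 ± 0.07, adjusted p = 0.00623), Uqcrq (-0.32 ± 0.07, adjusted p = 0.00604), Ndufa13 (-0.28 ± 0.09), Ndufb10 (-0.22 ± 0.06), Atp5d (-0.20 ± 0.05) and Ndufab1 (-0.19 ± 0.06), the last 4 with adjusted p from 0.0135 to 0.0356. None belonged to complexes II or IV. Their estimates were still below 0 in 4 of 4 and 11 of 12 members, with medians of -0.09 and -0.06. With 8 lower calls among 82 members, near the share of all genes, this absence does not set the 2 complexes apart. The median of the 82 was -0.10, against -0.00 for all genes. The count of lower members fell without replicate 2 of 0 h and without either library of 4 h. The shares of all genes in these fits are not given here. Without replicate 2 of 0 h the adjusted p was 0.0572 for Atp5j and 0.0956 for Ndufs7, and without replicate 2 of 4 h it was 0.0591 for Ndufs7 and 0.0526 for Uqcrq. Ndufa13, Ndufb10, Atp5d and Ndufab1 were each lost without replicate 2 of 0 h and without 1 or both libraries of 4 h. With replicate numbers as a block in the fit 20 members were lower (18.8% of all genes).

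The contrast of 8 h with 0 h, like those of 16, 20 and 28 h, was added after the values had been seen. At 8 h 17 members were lower (17.1% of all genes) and 1 was higher (17.3%), and the median of the 82 was -0.13, as deposited the lowest of the 8 contrasts with 0 h. Scaled to equal totals, this median was 0.01 at 8 h (all genes 0.14) and -0.06 at 4 h. Those lower as deposited were 8 accessory and 2 core subunits of complex I, 3 of complex V, 2 of complex IV (Cox6c -0.20, Cox5b -0.19), Sdhc (-0.24) and Uqcrq (-0.29). The largest were Atp5j (-0.50 ± 0.12, adjusted p = 0.00662), Ndufa6 (-0.44 ± 0.11, adjusted p = 0.00544) and Ndufc1 of the membrane arm of complex I (-0.38 ± 0.09, adjusted p = 0.00691). Ndufaf4 was the member higher (0.25 ± 0.09, adjusted p = 0.0498), a call lost in 17 of 26 alternatives, and Sdhc was lost in 11. With the replicate block 37 members were lower (all genes 24.7%). With equal totals 5 were lower (9.26%) and 5 higher (32.4%), and the calls of Cox6c, Cox5b, Sdhc and Uqcrq were lost. The count of lower members fell without replicate 2 of 0 h and without either library of 8 h. The shares of all genes in these fits are not given here. The calls of Atp5j and Ndufa6 were lost without replicate 2 of 0 h (adjusted p = 0.0633 and 0.0892), Atp5j also without replicate 2 of 8 h (0.0565), and Ndufc1 without replicate 1 of 8 h (0.0544).

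At 12 h no member was higher than at 0 h by limma (18.1% of all genes) and 14 were lower (18.2%), a share near that of all genes. Members higher numbered 1 at an unadjusted p under 0.05, 0 by edgeR and 0 by DESeq2. Those lower were 7 accessory subunits of complex I, with Ndufa6 lowest (-0.35 ± 0.11, adjusted p = 0.0195), 3 of complex IV (Cox5b -0.21, Cox7c -0.20, Cox6c -0.20), 3 of complex V (Atp5j -0.56, Atp5d -0.25, Atp5g2 -0.24) and Uqcrq (-0.38 ± 0.07, adjusted p = 0.00072). The median of complex IV was -0.15 and that of all members -0.06. With equal totals these medians were 0.03 and 0.12, where that of all genes was 0.18, and 28 members were called higher (all genes 38.5%) and 2 lower (9.55%), so directions at 12 h hold only relative to other genes. The count of lower members fell without replicate 2 of 0 h and without replicate 2 of 12 h. The shares of all genes in these fits are not given here. Ndufa6, Cox5b, Cox7c and Cox6c were each lost without replicate 2 of 12 h and without at least 1 library of 0 h, and Atp5j and Uqcrq in no alternative.

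At 16 h 2 members were higher than at 0 h (18.7% of all genes) and 5 lower (17.8%), at 20 h 9 and 2 (19.6% and 19%), and at 28 h 10 and 1 (19.8% and 20%). Sdha was among the higher ones at all 3 times (0.14, 0.17 and 0.18), with Atp5sl at 16 h (0.35). Those lower were Uqcrq (-0.26), Ndufa7 (-0.20), Cox7c (-0.18), Cox6c (-0.16) and Atp5g2 (-0.15) at 16 h, Atp5j (-0.33) and Cox7c (-0.17) at 20 h and Ndufaf4 (-0.30) at 28 h. With equal totals 47 members were higher at 16 h (all genes 40.7%), 58 at 20 h (42.2%) and 62 at 28 h (45.3%), and none was lower at any of them. At 16 h the count of higher members fell without either library of 16 h or of 0 h. That of lower members fell without either library of 16 h or of 32 h, or without replicate 2 of 0 h. At 20 h the count of higher members fell without either library of 20 h or replicate 2 of 0 h. The 2 lower calls were lost in 20 (Atp5j) and 18 (Cox7c) of 26 alternatives. At 28 h the count of higher members fell without either library of 0 h or of 28 h, and Ndufaf4 was not called without replicate 2 of 0 h or of 28 h. The shares of all genes in the fits with a library left out are not given here.

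At 24 h 10 members were higher than at 0 h (18.6% of all genes) and 1 was lower (18.6%), and at 32 h 8 were higher (20.5%) and 1 lower (20.4%). Sdha rose by 0.19 ± 0.04 at 24 h (adjusted p = 0.00314) and by 0.20 ± 0.04 at 32 h (adjusted p = 0.00196), and Ndufb10 by 0.23 ± 0.06 (adjusted p = 0.0059) and 0.21 ± 0.06 (adjusted p = 0.00973). Cox7a2l was 0.25 and 0.28 higher and Atp5sl 0.34 and 0.36 higher, and the calls of all 3 of Ndufb10, Cox7a2l and Atp5sl were lost without replicate 2 of 24 h (adjusted p = 0.0623, 0.279 and 0.0529) and without replicate 2 of 32 h (0.0775, 0.173 and 0.141). Ndufaf4 was lower by 0.29 ± 0.09 on the log2 scale at 24 h and by 0.41 ± 0.09 at 32 h (adjusted p = 0.0259 and 0.00282). With equal totals 63 members were higher at 24 h (all genes 43.7%) and 61 at 32 h (44.9%), none was lower (10.2% and 10.5%), and Ndufaf4 stood at -0.08 (adjusted p = 0.467) and -0.20 (adjusted p = 0.0793). The counts of higher members fell at both times without either library of 0 h. They also fell at 24 h without replicate 2 of 24 h, and at 32 h without replicate 2 of 32 h. The shares of all genes in these fits are not given here. Ndufaf4 was not called at 24 h without replicate 2 of 0 h or without either library of 24 h.

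A linear drift over the 32 h, fitted beside a 24 h cosine and sine, was rising in 53 members and falling in 2 (limma, adjusted p under 0.05), against 28.2% and 27.3% of all genes. The members' median drift was 0.19 on the log2 scale over 32 h. Drift values are the slope of the fitted line times 32 h and differ from the measured change between the ends. The median log2 difference of 32 h from 0 h was only 0.06 over all members and -0.04 in complex IV, and that of Cox7a2l was 0.28. Rising members were all 7 of the complex I core (median 0.22) and all 4 of complex II (0.22), 19 of 28 accessory subunits (0.19), 13 of 16 of complex V (0.23), 5 of 8 of complex III (0.20), Cox7a2l, Atp5sl, and Ndufa4, Cox6b1 and Cox7b of complex IV (0.08). Cox7a2l (0.46 ± 0.06), Ndufb10 (0.43 ± 0.05), Ndufb11 (0.42 ± 0.07) and Ndufs7 (0.38 ± 0.07) had the highest values among members that passed, and Sdha rose by 0.29 ± 0.03 and Atp5a1 by 0.25 ± 0.04. Ndufaf4 fell by 0.63 over 32 h on the fitted line (SE 0.08, adjusted p = 4.06e-06), in every alternative run. Its measured log2 difference of 32 h from 0 h was -0.41. Cox5a fell by 0.13 (SE 0.04, adjusted p = 0.0177), but without replicate 1 of 32 h its adjusted p was 0.0507, and with equal totals its sign turned. With equal totals 77 members rose (all genes 50.7%). The call of Sdhd, at 0.15 (adjusted p = 0.0448), was lost in 16 of 28 alternatives.

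No member passed the test for a 24 h rhythm, which 0.371% of all genes did. At an unadjusted p under 0.05 there were 19 of the 82, against 2107 of all 12393 genes. By edgeR 0 were called (all genes 0.315%) and by DESeq2 5 (4.49%), and 24 passed once a straight line in time was added to the model (17%). The 3 smallest p-values belonged to Ndufab1, the acyl carrier protein (adjusted p = 0.095, fitted peak-to-trough ratio 1.18, peak at 18.6 h), Uqcrq (adjusted p = 0.0986, 1.25, 23.1 h) and Atp5d (adjusted p = 0.106, 1.21, 22.2 h). The members' median fitted ratio was 1.09, and that of all genes 1.13. With 32 h sampled, little more than 1 cycle was covered.

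Replicates 1 and 2 differed in some members across the whole course. In a model of time and replicate, 21 members were higher in replicate 2 and 6 lower (limma, adjusted p under 0.05), against 20% and 17.9% of all genes. The largest were Ndufv3 (0.18 ± 0.03, adjusted p = 0.000283), Atp5e (0.17 ± 0.04, adjusted p = 0.00148) and Uqcrb (0.13 ± 0.02, adjusted p = 0.000304), all higher in replicate 2, and Cox6a1 (-0.16 ± 0.04, adjusted p = 0.00136), Cox4i1 (-0.10 ± 0.02, adjusted p = 0.00245) and Cox8a (-0.10 ± 0.03, adjusted p = 0.00905), lower in it. All 6 calls were kept in every alternative run. The 3 lower ones named belong to complex IV, in which 2 other members were higher in replicate 2. The remaining lower members were 2 accessory subunits of complex I and 1 member of complex III.

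Genes outside the symbol rule were compared between 4 h and 28 h in the same fit. Of 16 citric acid cycle and pyruvate dehydrogenase genes 7 rose and 1 fell (median log2 difference 0.14), with fumarase Fh1 at 0.20 ± 0.05 (adjusted p = 0.00275), Idh3g at 0.23 ± 0.05 (adjusted p = 0.0036) and Idh3a at -0.19 ± 0.06 (adjusted p = 0.0243). Of 76 mitochondrial ribosomal protein genes 26 rose and 2 fell (median 0.13), and of 76 cytosolic ones 19 rose, a share not far from the 20.6% of all genes, and none fell (median 0.13). From 8 h to 32 h 60 of the 76 cytosolic ribosomal genes rose (median 0.27) and 11 of the 76 mitochondrial ones (median 0.03), the latter near the 13.5% of all genes. Cytochrome c itself (Cycs), which shuttles between complexes III and IV, was at 5761 and 6349 normalized reads at 4 h and 5371 and 5345 at 28 h and was lower (-0.17 ± 0.06, adjusted p = 0.0353), and cytochrome c1 (Cyc1, a complex III subunit outside the symbol rule) did not pass (0.15 ± 0.09, adjusted p = 0.181). The inhibitor Atpif1 (0.19 ± 0.09) and the small subunit Usmg5 (-0.06 ± 0.09) of ATP synthase did not pass either.

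Of 24 further assembly factors tested 5 rose and 3 fell (median 0.06), where 20.6% and 20.7% of all genes did, so the share that rose was near that of all genes and the share that fell below it. The complex I factor Nubpl rose from 271 and 266 to 401 and 377 normalized reads (0.53 ± 0.09, adjusted p = 0.000261), while the complex III factor Ttc19 fell from 1655 and 1609 to 1211 and 1169 (-0.46 ± 0.05, adjusted p = 1.5e-05) and the ATP synthase factor Tmem70 fell by 0.45 (SE 0.07, adjusted p = 0.000123). Of 12 known regulators of respiratory genes 2 rose and 1 fell, below the shares of all genes: the mitochondrial rRNA methyltransferase Tfb1m rose from 91.1 and 96.5 to 178 and 156 normalized reads (0.82 ± 0.16, adjusted p = 0.000886), Gabpb2 rose by 0.19 ± 0.06 (adjusted p = 0.0265), and the coactivator Ppargc1b fell from 328 and 302 to 188 and 181 (-0.77 ± 0.22, adjusted p = 0.0134). Nrf1 (-0.08 ± 0.06), Gabpa (-0.14 ± 0.09), Esrra (-0.14 ± 0.09) and Tfam (0.03 ± 0.08) did not pass.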

How the data were processed

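RNA of 18 NIH3T3 libraries was isolated on columns and sequenced single-end, per the labels' protocols. TopHat, HTSeq, DESeq and build mm9 are named in the submitters' processing notes, without versions or roles. The authors deposited 1 signal value per gene and library: read counts divided by a size factor and rounded to 2 decimals. Divided by the value of 1 read, 100% of each column's values were whole (tolerance 0.02 reads, largest distance 0.00611), and the factors equal DESeq's median-of-ratios factors.

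The test, limma 3.58.1 (R 4.3.3), covered the 12393 of 21937 genes whose mean reached 10 normalized reads, on log2(value + 1), a scale that understates changes of low genes. The fit used a variance trend and all 18 libraries, with a Benjamini-Hochberg threshold of 0.05 over all genes tested. The tests were the F over 9 times, contrasts between times, a 24 h cosine and sine, a linear drift beside them, and replicate. The limma fits (F, 4 h against 0 h, drift, rhythm and replicate) were tested on simulated counts, edgeR and DESeq2 only for 4 h against 0 h. Alternatives were DESeq2 1.42.0 and edgeR 4.0.16 run on recovered counts, other scalings, pseudocounts and filters, a replicate block, and leaving out each library. Replicate numbers paired the libraries: deviations from time means correlated in 36 of 36 pairs of times (r 0.23 to 0.502, median 0.345). Where the pairing comes from is not given in the labels.

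Members named were, by rule, all isoform sets and complex II, the 3 highest and 3 lowest called in each test, the 2 smallest F p-values per complex, the 3 smallest rhythm p-values and assembly factors past the F test. 1 member is counted but not reported here by name. Other members, the 32 h against 8 h contrast and those of 8, 16, 20 and 28 h with 0 h were chosen after values were seen. The members and gene lists were chosen with earlier results of these data known. Exon lengths, overlaps and copies came from GENCODE M21 and promoters from RefSeq GRCm38.p6, later builds than mm9, matched by symbol. No coordinate in mm9 is given.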

Additional observations from a re-analysis of the deposited data

How the results depend on the processing

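Setting libraries to equal totals put the all-gene median of a contrast with 0 h at 0.03 (4 h), 0.14 (8 h) and 0.18 to 0.22 (later times). It put that of 28 h against 4 h at 0.19 and that of 32 h against 8 h at 0.07. As deposited these medians lay between -0.004 and 0.013. In the counts below, a percentage in brackets is the share of all genes called in the same fit. With equal totals members higher numbered 5 (8 h, 32.4%), 28 (12 h, 38.5%), 47 (16 h, 40.7%) and 58 (20 h, 42.2%). They numbered 63 (24 h, 43.7%), 62 (28 h, 45.3%), 61 (32 h, 44.9%), 73 (40.8%) for 28 h against 4 h and 60 (20.8%) for 32 h against 8 h. Members lower then numbered 5 (8 h, 9.26%), 2 (12 h, 9.55%) and 0 at 16, 20, 24, 28 and 32 h (9.96% to 10.5%). Those with a falling drift numbered 1 (14%), and those lower in replicate 2 numbered 10 (20.8%). The drift of Cox5a reversed (0.00224 per h, adjusted p = 0.234), as did the differences from 0 h of Atp5g2 (0.040), Cox6c (0.031) and Cox7c (0.010) at 16 h and of Cox7c at 20 h (0.025), and the uncalled difference of Cox6c between 28 h and 4 h (0.16, adjusted p = 0.0161). With the replicate block members lower numbered 20 (4 h, 18.8%), 37 (8 h, 24.7%), 23 (12 h, 25.6%), 12 (16 h, 24.9%) and 5 (20 h, 25.9%). They numbered 3 (24 h, 24.9%), 5 (32 h, 27.1%) and 2 (21.1%) for 32 h against 8 h. Members higher under the block numbered 1 (12 h, 24%), 12 (16 h, 24.3%), 21 (20 h, 25.3%), 20 (24 h, 24.4%), 21 (28 h, 26%) and 21 (32 h, 26.6%). The block raised the shares of all genes in these contrasts as well. The other counts stayed within 1.5 times under the block. TMM factors gave 1 member higher at 12 h, 5 at 16 h and 16 at 28 h, and 2 lower at 16 h and 0 at 20 h. No filter gave 1 higher at 4 h, 3 lower at 16 h and 0 at 20 h. A pseudocount of 10 gave 0 higher at 8 h, and no trend 0 higher at 8 h, 3 lower at 16 h and 1 at 20 h. DESeq2 gave 0 higher at 8 h, 1 at 16 h and 0 lower at 20 h, where edgeR also gave 0. The 24 h rhythm was called in 5 members by DESeq2 and in 24 with a linear term, and in 0 by edgeR. Leaving out 1 library at a time gave 38 to 49 members in the F test, 0 to 0 rhythmic, 46 to 58 rising and 1 to 2 falling. For 28 h against 4 h it gave 17 to 44 higher and 1 to 1 lower, and for 32 h against 8 h 9 to 41 and 1 to 1. Against 0 h it gave 0 to 0 higher and 1 to 10 lower at 4 h, 0 to 1 and 6 to 20 at 8 h, 0 to 0 and 5 to 16 at 12 h, 0 to 3 and 1 to 6 at 16 h, 3 to 8 and 0 to 3 at 20 h, 2 to 12 and 0 to 1 at 28 h, 4 to 12 and 0 to 1 at 24 h, and 1 to 10 and 1 to 2 at 32 h. Between replicates it gave 18 to 22 higher and 4 to 6 lower. The shares of all genes are not given beside these ranges. Where 1 library is left out its time holds 1 library, assumed to vary like the others. Among the named genes 1185 values kept direction and call under alternatives other than leaving out libraries, 66 lost and 35 gained a call and 6 reversed. With a library left out 2561 kept both, 242 lost and 11 gained a call and 0 reversed. Reversed here means a change of sign where the main or the alternative fit had a call. A further 7 values under the former alternatives and 12 with a library left out changed sign without a call in either fit. The cause of these changes was not tested.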
